A study of Homo sapiens with 6 samples.

Results

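The mitochondrial ribosomal protein genes described here are the rows whose symbol reads MRPL or MRPS followed by a number and at most 1 letter, with MRPL for the large and MRPS for the small subunit. They were found by symbol alone, 78 of 45019 rows, of which 49 were MRPL and 29 MRPS genes. All 78 had a GENCODE 29 entry. RNA was sequenced from MDA-MB-468, a breast cancer cell line of the basal-like, triple-negative type in which EGFR is amplified. Untreated cells, labelled day 10, were compared with cells kept for 10 days in 100 µM DETA/NO, which gives off nitric oxide slowly in the medium. The protocol given with the samples of both groups has 4 h of adherence before DETA/NO and replating every 48 h. Each group had 3 labelled samples, but DETA/NO replicates 1 and 2 had the same value in every row and counted as 1 library, which leaves 3 untreated libraries and 2 with DETA/NO. Whether the samples were separate cultures, and what the untreated cells received in place of DETA/NO, is not in the labels, so the p-values cover no more than the spread among these libraries, which may be technical.

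The mitochondrial ribosome makes the few proteins encoded by mitochondrial DNA, all of them subunits of the respiratory chain complexes and ATP synthase. Its proteins are encoded in the nucleus, made in the cytosol and imported, while its ribosomal RNAs are transcribed from the mitochondrial genome. Some of its proteins have counterparts in bacterial ribosomes, and others are found in mitochondria only. Assembly needs GTPases, RNA helicases and rRNA methyltransferases, and breast tumours and their cell lines depend to differing degrees on mitochondrial respiration.

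RefSeq GRCh38.p14 promoter entries, from 250 bases before to 50 bases after the start, were matched for 69 of the 78 genes. The entries not matched were those of MRPL10, MRPL13, MRPL15, MRPL2, MRPL21, MRPL23, MRPL35, MRPS28 and MRPS36. The 4 sequences below are the 250 bases before the start of a gene that rose with a pair of ETS core matches, a gene that rose with none of the motifs in these bases, the small subunit gene that fell, and a gene that did not pass the test. They are written 5′ to 3′ on the strand of the gene, and capitals mark the ETS core CCGGAAG on either strand. None of these windows holds an annotated exon.
MRPL58 (rose, GRCh38.p14 chr17:75012420-75012669, plus strand): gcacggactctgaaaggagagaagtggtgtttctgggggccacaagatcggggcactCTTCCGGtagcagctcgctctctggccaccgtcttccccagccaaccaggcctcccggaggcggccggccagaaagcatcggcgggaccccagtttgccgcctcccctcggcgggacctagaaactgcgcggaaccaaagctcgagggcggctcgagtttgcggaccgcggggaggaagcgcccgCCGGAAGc
MRPL11 (rose, GRCh38.p14 chr11:66438849-66439098, minus strand): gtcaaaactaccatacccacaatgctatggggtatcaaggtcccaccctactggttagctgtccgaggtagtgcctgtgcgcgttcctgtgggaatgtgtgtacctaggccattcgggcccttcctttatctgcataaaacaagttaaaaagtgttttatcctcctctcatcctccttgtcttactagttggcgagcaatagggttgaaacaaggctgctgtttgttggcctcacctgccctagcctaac
MRPS14 (fell, GRCh38.p14 chr1:175023426-175023675, minus strand): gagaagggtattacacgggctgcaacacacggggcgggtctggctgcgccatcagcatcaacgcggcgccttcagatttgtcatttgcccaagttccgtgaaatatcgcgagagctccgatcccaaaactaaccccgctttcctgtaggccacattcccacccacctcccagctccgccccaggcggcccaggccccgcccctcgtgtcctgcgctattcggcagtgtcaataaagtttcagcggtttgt
MRPS18A (not called, GRCh38.p14 chr6:43687792-43688041, minus strand): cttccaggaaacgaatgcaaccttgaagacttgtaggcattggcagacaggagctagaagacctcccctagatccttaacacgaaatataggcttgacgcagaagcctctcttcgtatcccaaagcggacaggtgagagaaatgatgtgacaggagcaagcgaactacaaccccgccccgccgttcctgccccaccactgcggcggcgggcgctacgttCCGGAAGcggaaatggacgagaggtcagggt
The matches begin at positions -193 and -8 from the start in MRPL58 and at -31 in MRPS18A, and MRPL11 and MRPS14 have none.

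The ETS core was common in these promoters: 29 of 69 (42.0%) held it on either strand, against 17.2% of the 10996 promoters of genes tested and 10.7% of all 27305 promoters of this length. AAGATGG, which holds the core that the factor YY1 binds, was in 23 (33.3%), against 7.18% of promoters of genes tested and 6.06% of all. The windows of MRPL11 and MRPS18A held it too, though not within the 250 bases printed above. Where both occur, the last letters of the ETS core can be the first letters of this motif. GGGCGG, the GC box of SP factors, was in 60.9% of the members' promoters, beside 66.7% of promoters of genes tested and 44.6% of all. The consensus of nuclear respiratory factor 1 was in 2 of the 69 (2.9%), beside 2.7% of promoters of genes tested and 1.59% of all. The E-box CACGTG was in 8.7% (9.59% of promoters of genes tested) and TATAAA in 2.9% (6.48%). Large and small subunit promoters held the ETS core in 40.5% and 44.4%. Among genes that rose it was in 7 of 17 (41.2%) and among those tested and not called in 16 of 36 (44.4%), and both genes that fell lacked it. These matches are letters in a window and no measure of a factor's binding.

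Depth was 28897422 to 34637343 reads recovered per library, and the lowest total was that of DETA/NO library 1 and 2. Of the 10 markers of basal-like cells, all were tested and 4 were higher after DETA/NO. EGFR itself read 226490, 222549 and 217563 normalized reads in the untreated libraries and 247990 and 245827 in the DETA/NO libraries. Of 18 markers of fibroblast, endothelial, immune and fat cells, 11 were under a mean of 10, 4 were higher and 1 was lower. Their sum was 1004 to 1059 in untreated and 1435 and 1482 in DETA/NO libraries, most of it COL1A1, while CD68, which other genes overlap, was at 0 in every library. PGR, which this line lacks, was at 5.73 or under in each library, while ESR1 and ERBB2 had reads and were both called. ESR1 read 823 to 846 untreated and 925 and 1093 after DETA/NO, and ERBB2 1830 to 1981 untreated and 1429 and 1529 after DETA/NO. The part of these markers in the results below was not tested. In bulk RNA a change in RNA per cell and a change in the share of cells with that RNA cannot be told apart.

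In the deposited values, 15 mitochondrial ribosomal protein genes were at 0 in every library. Of the large subunit these were MRPL2, MRPL12, MRPL30, MRPL34, MRPL38, MRPL40, MRPL46, MRPL49 and MRPL53, and of the small subunit MRPS11, MRPS12, MRPS16, MRPS17, MRPS24 and MRPS28. MRPL12 forms the flexible stalk that recruits translation factors, and MRPS12 lies at the decoding site, so both are parts that a working mitochondrial ribosome needs. A count of 0 allows up to 3 reads per library, between 2.77 and 3.32 normalized reads, for counting error only. MRPS6 had 2 and 3 reads in untreated libraries 1 and 2 and 0 in the others. The remaining 62 genes, 40 MRPL and 22 MRPS, had a mean of at least 10 and were tested.

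The genes at 0 shared a position: at least 97.9% of the exonic length of each, and 100% in 12 of them, lay inside the span of another gene in the files. The same held over the table. Among protein-coding rows with over 97% of their exonic length inside other spans, 1942 of 2330 (83.3%) were at 0 in every library, and among the members 15 of 16. With no such overlap, 1085 of 9817 rows (11.1%) and 0 of 34 members were at 0. MRPL40, which lies in the spans of HIRA and C22orf39, had none of its exonic length in other exons and was at 0 as well. The counting rule for overlapping genes and the strand setting are not given in the sources used here, so these 15 values are not read as absence of expression.

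**Figure D1:**
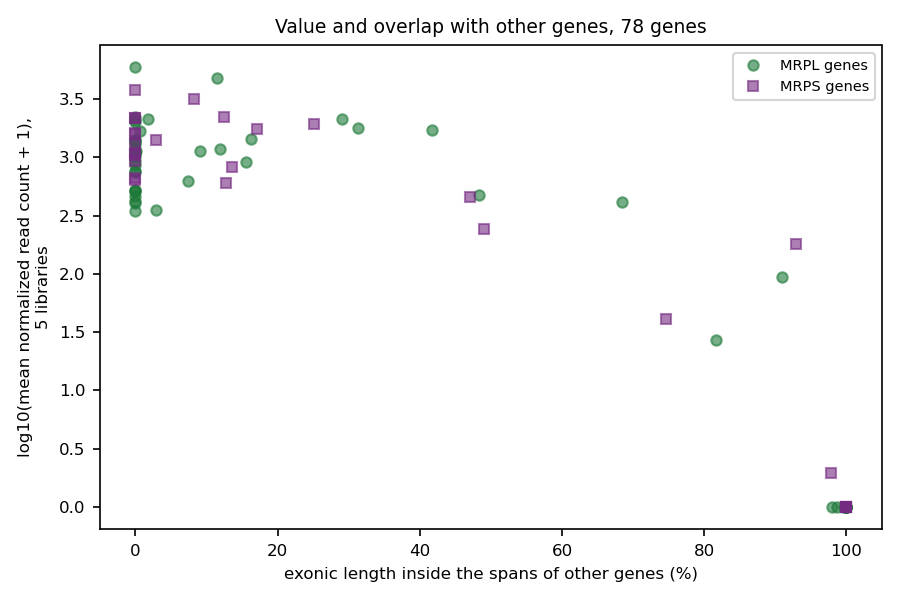
Mean normalized read count over the 5 libraries (log10 of the value + 1) of each of the 78 genes against the percentage of its exonic length inside the spans of other genes, with circles for MRPL and squares for MRPS genes. The 15 genes at 0 all lie at 97.9% or above, and the 34 genes with no overlap all lie well above 0.

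Among the genes that could be tested, levels were moderate and close between libraries. The mean untreated value ran from 25.1 to 5707 normalized reads with a median of 1087, and 33 genes were at 1000 or more. The coefficient of variation over the 3 untreated libraries had a median of 3.64% and ran from 0.331% to 20.2%. Per kilobase of exonic length, the median untreated level was 369.7 normalized reads for MRPL and 336.7 for MRPS genes. The order of the subunits turned when length shared with other exons was left out (377.7 and 397.6) or length inside other spans was (415.7 and 447.2). MRPL3, a counterpart of bacterial ribosomal protein L3, was highest among the large subunit genes at 2102 per kilobase, followed by MRPL37 at 1722 and MRPL39 at 1701. MRPS21, MRPS15 and MRPS18B led the small subunit genes at 1314, 1264 and 1164 per kilobase. By full exonic length the lowest levels belonged to genes that other genes overlap. MRPL19 was at 5.45 per kilobase with 81.7% of its exonic length in other spans, MRPL4 at 21.3 with 91.0% and MRPL43 at 110.1 with 68.5%. MRPS2 was at 14.4 with 74.7%, MRPS25 at 34.4 with 92.9% and MRPS18C at 50.02 with 49.0%. These places depend on the length used. Per kilobase outside other spans MRPS25 was at 484.6, MRPL43 at 349.1 and MRPL4 at 236.7, none of them among the lowest, while MRPL19 (29.7), MRPS2 (57.0) and MRPS18C (98.1) stayed low. By that length MRPS18B (1329) passed MRPS21, and MRPL33 (1847) passed MRPL39.

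After DETA/NO more of the tested genes were higher than lower, by small amounts. With limma and a Benjamini-Hochberg adjusted p under 0.05 over 16409 genes, 19 of 62 rose (30.6%) and 2 fell (3.23%), where 21.7% of all genes tested rose and 21.7% fell, together 43.4%. The background includes many genes with lower values than these. Of the 60 members with a mean of at least 50, 31.7% rose and 3.33% fell, beside 25.7% and 25.4% of all genes at that mean. The median log2 fold change was 0.09 for the 62 genes and -0.0002 for all genes tested. Values were above 0 in 49 of 62. In 27 genes (43.5%) both DETA/NO values exceeded every untreated value and in 3 (4.84%) both lay below, where 30.4% and 30.8% of all genes tested did, together 61.2%. The 3 below were MRPS14, MRPL24 and MRPS26, the last of which had a log2 fold change of -0.02 and was named after its values were seen. No called change reached 2-fold: the called rises ran from 6.43% to 23.3%. Quantile normalization gave 16 higher and 2 lower and TMM scaling 19 and 2, with medians of 0.08 and 0.09.

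The counts depend on the test and on single libraries. Each fit without a DETA/NO library compares 1 treated library with 3 untreated ones, so a call lost there is no measure of that gene alone. EdgeR on the recovered reads also gave 19 higher and 2 lower, where it called 22.1% and 21.2% of all genes, together 43.3%. DESeq2 gave 12 higher and 0 lower (19 and 2 at an unadjusted p under 0.05), where it called 17.0% and 15.6% of all genes, together 32.5%. Without DETA/NO library 3, 11 were higher (17.7%) and 1 lower, where 18.0% and 18.6% of all genes were called. When DETA/NO library 1 and 2 was left out, 14 were higher (22.6%) and 1 lower, where 17.0% and 17.1% of all genes were. When untreated library 2 was left out, limma called 14 higher (22.6%) and 0 lower (23 and 1 at an unadjusted p under 0.05), where 19.2% and 18.6% of all genes were called. Of the 21 called genes, 6 passed in each of the 15 alternatives run: MRPL37, MRPL41, MRPL36, MRPL11, MRPS33 and MRPS34.

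**Figure D2:**
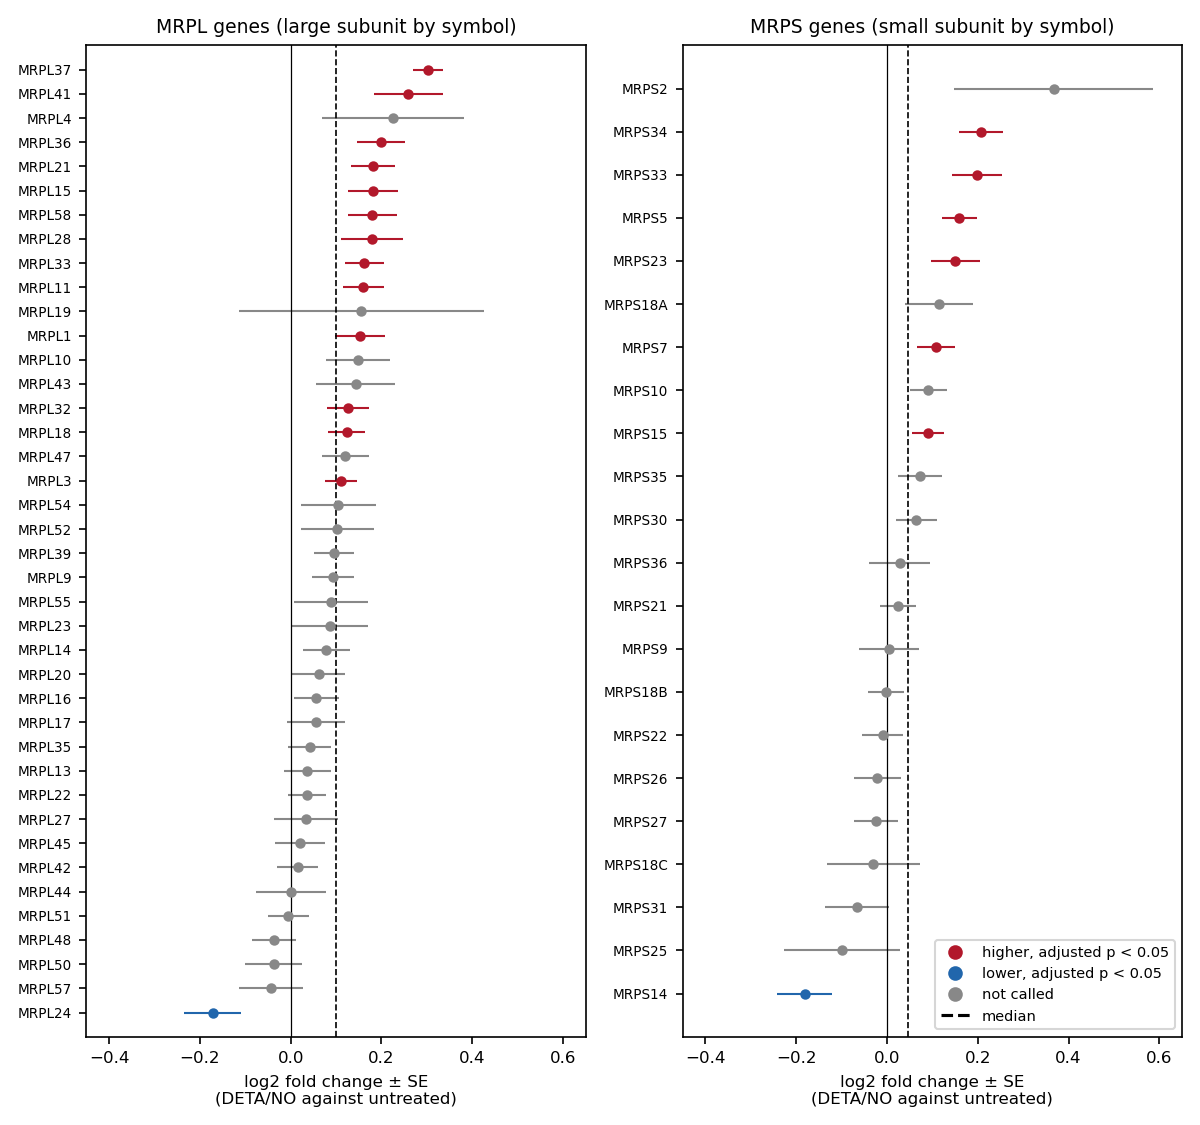
Log2 fold change (DETA/NO against untreated) with its standard error for the 40 MRPL and 22 MRPS genes tested, with red for genes called higher, blue for genes called lower and grey for the others, and a dashed line at the median of each subunit. The medians lie at 0.10 for MRPL and 0.05 for MRPS genes, and 1 gene of each subunit was called lower.

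In the large subunit 13 of 40 tested genes rose (32.5%) and 1 fell, with a median log2 fold change of 0.10, and 8 rose (20.0%) without DETA/NO library 3, when 18.0% of all genes did. With all libraries kept, 21.7% of all genes tested rose and 21.7% fell. The mitochondria-specific proteins gave the 2 largest called rises of the large subunit. MRPL37, one of these proteins, on chromosome 1 at 54184041 to 54225464 (GRCh38), read 4301, 4453 and 4411 normalized reads in the untreated libraries and 5414 and 5406 in the DETA/NO libraries. Its DETA/NO libraries were nearly equal and far above every untreated library. It went from 4388 ± 78.6 (SD, n = 3) to 5410 ± 5.66 (SD, n = 2), a log2 fold change of 0.30 ± 0.033 (SE; limma adjusted p = 6.38e-09). MRPL41, also mitochondria-specific and encoded on chromosome 9 at 137551199 to 137552555, read 411, 424 and 463 untreated and 521 and 514 after DETA/NO. The groups did not overlap, and the log2 fold change was 0.26 ± 0.076 (SE; limma adjusted p = 0.00603). MRPL58, a peptidyl-tRNA hydrolase built into the large subunit that can free peptides from stalled ribosomes, read 1063, 1075 and 1161 untreated and 1283 and 1208 after DETA/NO. It rose by 13.3% (limma adjusted p = 0.00669) and was not called without DETA/NO library 1 and 2 (adjusted p = 0.116). Of 16 tested mitochondria-specific large subunit genes these 3 rose (18.8%) and 0 fell with limma, edgeR and DESeq2. Of all genes tested, these methods called 21.7%, 22.1% and 17.0% higher. At an unadjusted p under 0.05, limma gave 4 of the 16 higher and 0 lower, and their median log2 fold change was 0.08. The 16 include MRPS18A and MRPS30, placed here by structure, which by symbol are also among the 22 small subunit genes below. MRPL55, among the 40 by symbol, was put in neither class.

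Of the 25 tested large subunit genes with a bacterial counterpart, 10 rose (40.0%) and 1 fell, 24 had a log2 fold change above 0, and the median was 0.12. Without DETA/NO library 3 the number that rose was 5 (20.0%, beside 18.0% of all genes), and with DETA/NO library 1 and 2 left out it was 6 (24.0%, beside 17.0%). MRPL36, a counterpart of the small bacterial protein L36, read 960, 1001 and 948 untreated and 1117 and 1108 after DETA/NO. It lies on chromosome 5 at 1798386 to 1801366 and its groups were separate, with a log2 fold change of 0.20 ± 0.053 (SE; limma adjusted p = 0.00288). MRPL11, part of the stalk base where elongation factors bind, read 1387, 1370 and 1376 untreated and 1548 and 1532 after DETA/NO. The groups stood far apart next to their own spread, and the difference was 11.8% (limma adjusted p = 0.00512). MRPL21 read 1283, 1270 and 1264 untreated and 1408 and 1479 after DETA/NO, a rise of 13.4%. MRPL15 read 995, 1098 and 1029 untreated and 1198 and 1160 after DETA/NO, also 13.4% higher. Both are counterparts of bacterial proteins of the same number, and neither overlapped between groups. MRPL21 was not called without DETA/NO library 3 (adjusted p = 0.058), and MRPL15 not without DETA/NO library 1 and 2 (0.0699) or without untreated library 1 (0.0501). MRPL3 read 5884, 5802 and 5436 untreated and 6119 and 6200 after DETA/NO, 7.98% higher (limma adjusted p = 0.00995), and was not called without DETA/NO library 3 (0.0688). The other 5 that rose, named here after their values were seen, were MRPL28, MRPL33, MRPL1, MRPL32 and MRPL18, by 13.2% to 8.94%. Each of these 5 lost its call when some single library was left out: MRPL28 without any of 4 libraries (all but untreated library 3), MRPL1 without untreated library 2 or either DETA/NO library, MRPL32 without DETA/NO library 1 and 2 or without the first untreated one, MRPL33 without DETA/NO library 1 and 2, and MRPL18 without DETA/NO library 3. MRPL1 is part of the stalk through which spent tRNA leaves, and MRPL32 is cut by the m-AAA protease before it enters the ribosome.

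MRPL24, a counterpart of the assembly-initiating bacterial L24, was the 1 large subunit gene that fell. It read 859, 925 and 901 untreated and 853 and 740 after DETA/NO, so that DETA/NO library 1 and 2 lay just under the lowest untreated library and library 3 well below. The log2 fold change was -0.17 ± 0.063 (SE; limma adjusted p = 0.0269). It was -0.07 when DETA/NO library 3 was left out (adjusted p = 0.504) and -0.15 when untreated library 2 was (0.114). MRPL10, which anchors the MRPL12 stalk, read 516, 478 and 495 untreated and 546 and 554 after DETA/NO and did not pass (limma adjusted p = 0.0927). For MRPL45, which lies where the new peptide leaves the ribosome at the inner membrane, the log2 fold change was 0.02 (adjusted p = 0.8). MRPL39 had 0.10 (adjusted p = 0.077), MRPL43 0.14 (0.19), MRPL4 0.22 (0.261) and MRPL19 0.16 (0.682). For MRPL43, MRPL4 and MRPL19 the libraries overlapped between groups.

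In the small subunit 6 of 22 tested genes rose (27.3%, beside 21.7% of all genes) and 1 fell, with a median log2 fold change of 0.05. Leaving out either untreated library 2 or DETA/NO library 3 left 3 that rose (13.6%), under the 19.2% and 18.0% of all genes called higher in those fits. The median was 0.03 without untreated library 3, 0.09 when DETA/NO library 3 was left out and 0.02 when DETA/NO library 1 and 2 was. The DETA/NO values stood above every untreated value in 9 genes (40.9%) and below in 2 (9.09%), beside 30.4% and 30.8% of all genes tested. The mitochondria-specific proteins again held the largest called rises. With limma and edgeR 3 of 10 tested rose (30.0%) and 0 fell (3 and 0 at an unadjusted p under 0.05). Of all genes, limma called 21.7% and edgeR 22.1% higher. With DESeq2 2 of the 10 rose (20.0%, beside 17.0% of all genes) and 0 fell. MRPS34, on chromosome 16 at 1771890 to 1773155, is a protein whose loss is known to destabilize the 12S rRNA. It read 1202, 1170 and 1207 untreated and 1383 and 1371 after DETA/NO, a log2 fold change of 0.21 ± 0.049 (SE; limma adjusted p = 0.000829). MRPS33, on chromosome 7 at 141002610 to 141015228, read 859, 890 and 883 untreated and 1004 and 1008 after DETA/NO, 14.7% higher (limma adjusted p = 0.00389). In both the gap between the groups was several times the spread within them. MRPS23 read 1035, 975 and 973 untreated and 1081 and 1126 after DETA/NO, a log2 fold change of 0.15, and was not called without DETA/NO library 3 (adjusted p = 0.173) or without untreated library 2 (0.0853). The median log2 fold change of the 10 mitochondria-specific genes was -0.01: of the 7 that were not called, 6 lay below 0 and 1 above, none of them past the threshold.

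Of the 9 tested small subunit genes with a bacterial counterpart, 3 rose (33.3%) and 1 fell (11.1%), with a median of 0.09. Of all genes tested, 21.7% rose and 21.7% fell. When untreated library 1 or untreated library 2 was left out, 1 of the 9 rose (11.1%), beside 18.8% and 19.2% of all genes. MRPS5, whose bacterial counterpart guards the accuracy of decoding, read 3048, 3118 and 2900 untreated and 3361 and 3387 after DETA/NO. Its groups were separate and it rose by 11.7% (limma adjusted p = 0.000909). MRPS7, a counterpart of the protein that starts assembly of the head of the bacterial small subunit, read 1885, 1873 and 1882 untreated and 2050 and 2005 after DETA/NO, 7.84% higher. MRPS15 read 3732, 3666 and 3663 untreated and 3828 and 4022 after DETA/NO, 6.43% higher. These were the least stable of the small subunit calls. MRPS7 passed in 7 and MRPS15 in 8 of the 15 alternatives, and without DETA/NO library 3 the adjusted p were 0.064 and 0.376. Leaving out DETA/NO library 1 and 2 also ended the MRPS7 call (0.192), and leaving out untreated library 1 or 2 ended both calls.

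MRPS14, a counterpart of bacterial S14 in the head of the small subunit on chromosome 1 at 175010789 to 175023425, was the 1 small subunit gene that fell. It read 831, 914 and 847 untreated and 744 and 780 after DETA/NO. Both DETA/NO libraries lay below the lowest untreated one. The log2 fold change was -0.18 ± 0.060 (SE; limma adjusted p = 0.0152), but the call was lost without untreated library 2 (adjusted p = 0.108), without DETA/NO library 1 and 2 (0.132) and with DESeq2 (0.0752). MRPS2, at 35.4, 34.3 and 37.0 untreated and 52.1 and 40.8 after DETA/NO, had the highest fitted log2 fold change of all members, 0.37 ± 0.22 (SE), at few reads, and did not pass (limma adjusted p = 0.186).

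**Figure D3:**
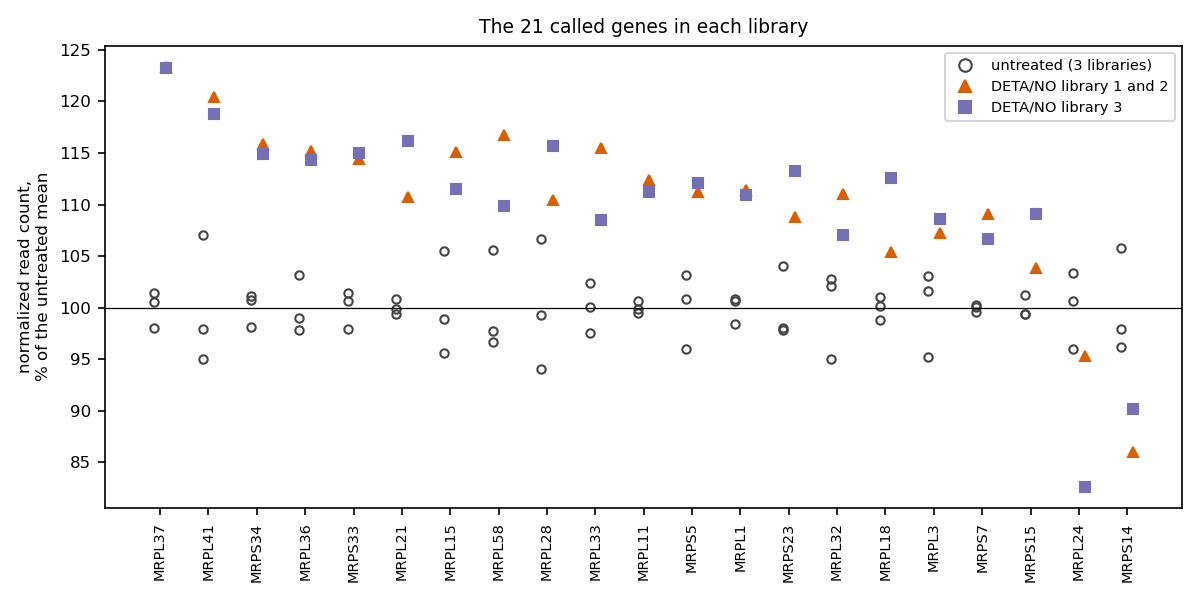
Normalized read count of the 21 called genes in each library, in percent of the untreated mean (circles, 3 untreated libraries; triangles, DETA/NO library 1 and 2; squares, DETA/NO library 3). In all 21 the DETA/NO libraries lie on 1 side of the untreated circles, and in MRPL24 the DETA/NO libraries stand farther apart than in most of the others.

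The symbols do not all match the place of the protein. MRPS18A, MRPS18B and MRPS18C are paralogues of one another, related to bacterial S18. In the classes used above, MRPS18C was counted with a bacterial counterpart, and MRPS18A and MRPS18B as mitochondria-specific. The MRPS18A protein sits in the large subunit, as does that of MRPS30. MRPS18A read 445, 417 and 448 untreated and 460 and 486 after DETA/NO, a log2 fold change of 0.11 (limma adjusted p = 0.233). MRPS18B read 2165, 2238 and 2190 untreated and 2195 and 2194 after DETA/NO, and MRPS18C 263, 218 and 250 and then 230 and 245. Their log2 fold changes were -0.00 and -0.03, and neither separated the groups. MRPS30 had 0.06 (adjusted p = 0.269). MRPS36, a protein now known as a subunit of the 2-oxoglutarate dehydrogenase complex rather than of the ribosome, had 0.03 (0.77). With these genes placed by structure, 13 of 42 large subunit genes rose (31.0%) and 1 fell (median 0.10). In the small subunit 6 of 19 genes rose (31.6%) and 1 fell (median 0.02). Over all genes tested, 21.7% rose and 21.7% fell. The difference between the subunits was not tested.

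The sum of all MRPL values was 107.9% and 107.7% of the untreated mean in the DETA/NO libraries, with untreated libraries between 98.3% and 101.3%. That of MRPS values was 105.1% and 104.1%, with untreated libraries between 98.7% and 100.7%. Both sums separated the groups. Together the members held 0.247%, 0.245% and 0.241% of the untreated and 0.261% and 0.256% of the DETA/NO libraries.

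A further 5 proteins of the mitochondrial ribosome carry other names. With limma, edgeR and DESeq2, 3 of the genes rose and 0 fell (3 and 0 at an unadjusted p under 0.05 with limma). Of all genes tested, these methods called 21.7%, 22.1% and 17.0% higher and 21.7%, 21.2% and 15.6% lower. GADD45GIP1, also called CRIF1, a large subunit protein near the exit of the peptide tunnel, read 613, 648 and 679 untreated and 830 and 793 after DETA/NO. It rose by 0.33 ± 0.064 on the log2 scale (SE; limma adjusted p = 9.24e-05), and 29.4% of its exonic length lies inside other spans. AURKAIP1, a small subunit protein, read 812, 832 and 884 untreated and 989 and 1005 after DETA/NO, 18.3% higher. PTCD3, a pentatricopeptide repeat protein of the small subunit, was 8.91% higher and was not called without DETA/NO library 1 and 2 (adjusted p = 0.0619), when 2 of the 5 rose. The log2 fold change of DAP3, a GTP-binding protein of the small subunit, was 0.05 (adjusted p = 0.195), and that of CHCHD1 was -0.01 (0.863). With these proteins included, 14 of 43 large subunit genes rose (32.6%) and 1 fell (median 0.10). In the small subunit 8 of 23 genes rose (34.8%) and 1 fell (median 0.05). With limma, 21.7% of all genes tested rose and 21.7% fell.

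Of 28 assembly factor genes 24 were tested, and 6 rose and 1 fell, with a median log2 fold change of 0.08. The share that rose was little above the 21.7% of all genes tested, and the share that fell was 4.17%, beside 21.7% of all genes. C1QBP, a matrix protein that binds RNA and ribosomes, read 2817, 2812 and 2671 untreated and 3287 and 3251 after DETA/NO (log2 fold change 0.24). MALSU1, which keeps the large subunit from joining the small one too early, read 1946, 1978 and 1991 untreated and 2237 and 2352 after DETA/NO (0.22). Of the exonic length of MALSU1, 39.5% lies in exons of IGF2BP3. MTG2, a GTPase of large subunit assembly, read 869, 893 and 868 untreated and 1139 and 1002 after DETA/NO (0.29). All 3 rose with groups that did not overlap. METTL15, which methylates a cytosine of the 12S rRNA, fell from 2758, 2653 and 2669 to 2203 and 2213, a log2 fold change of -0.29 ± 0.039 (SE; limma adjusted p = 3.56e-07).

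Among 15 tested genes of translation factors and mRNA-handling proteins 3 rose and 2 fell, with a median of 0.05. With 1 library left out, 2 to 4 rose and 2 or 3 fell, and the 20.0% that rose with all libraries is under the 21.7% of all genes. TUFM, the mitochondrial elongation factor Tu, read 2480, 2474 and 2583 untreated and 2904 and 2912 after DETA/NO. LRPPRC and SLIRP, which form a complex that protects mitochondrial mRNAs, were 13.9% and 12.9% higher, and 43.9% of the exonic length of SLIRP lies inside other spans. SLIRP was not called without untreated library 2 (adjusted p = 0.0868) or without DETA/NO library 1 and 2 (0.232). GFM1, the elongation factor G1 that moves the ribosome along its mRNA, read 3772, 3632 and 3690 untreated and 2167 and 2266 after DETA/NO. That fall of 0.74 on the log2 scale is the largest change in either direction in these lists, and 58.9% of the exonic length of GFM1 lies in the span of LXN. It fell in each of the 15 alternatives. MTIF3, initiation factor 3, fell by 13.9% and was not called without DETA/NO library 1 and 2 (adjusted p = 0.0893).

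**Figure D4:**
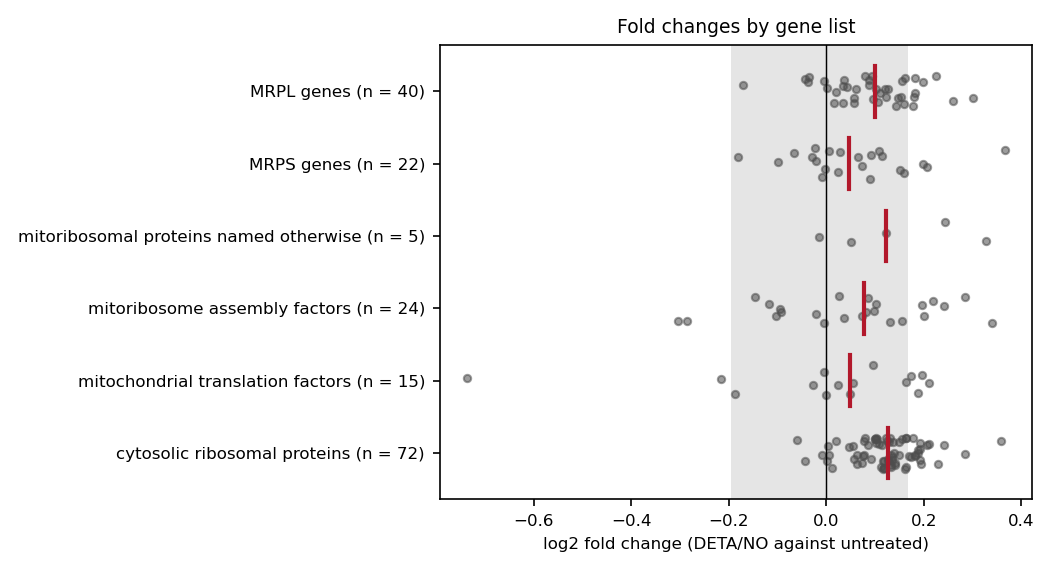
Log2 fold change (DETA/NO against untreated) of each tested gene of 6 lists (points, spread vertically for legibility), with a red bar at the median of each list and a grey band from the lower to the upper quartile of all 16409 genes tested. The medians of all 6 lists lie between 0.05 and 0.13, and the point at the far left is GFM1.

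Of the 72 cytosolic ribosomal protein genes tested 53 rose (73.6%) and 0 fell, beside 21.7% and 21.7% of all genes tested. The median log2 fold change of the 72 was 0.13. EdgeR called 53 and 0 (beside 22.1% and 21.2% of all genes) and DESeq2 48 and 0 (beside 17.0% and 15.6%). Limma at an unadjusted p under 0.05 gave 57 and 0. Limma without the trend and robust options called 20 and 0 (beside 13.8% and 15.2% of all genes). These genes have many processed pseudogenes, and how reads that fit several places were counted is not given in the sources used here. RPL8 read 10568, 10699 and 11085 untreated and 12799 and 12685 after DETA/NO, RPL4 20021, 20609 and 20072 and then 22816 and 23104, and RPL27 6131, 6110 and 6091 and then 6989 and 7114. Each separated the groups. The difference in shares called between the cytosolic and the mitochondrial genes was not tested.

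Both ribosomal RNAs of the mitochondrial ribosome rose. MT-RNR1, the 12S rRNA of the small subunit, read 26364, 27361 and 28402 untreated and 40403 and 38691 after DETA/NO. The DETA/NO libraries lay far above all untreated libraries, with a log2 fold change of 0.53 ± 0.030 (SE; limma adjusted p = 8.47e-15) that passed in all 15 alternatives. MT-RNR2, the 16S rRNA of the large subunit, read 423844, 446790 and 459851 untreated and 497879 and 530125 after DETA/NO, a log2 fold change of 0.21 ± 0.033 (SE; limma adjusted p = 5.63e-05). It passed in 12 of 15 alternatives, and quantile normalization gave 0.06 (adjusted p = 0.172). MT-RNR1 was 6.17 ± 0.048% (SD, n = 3) of MT-RNR2 in untreated and 7.71 ± 0.578% (SD, n = 2) in DETA/NO libraries. In an exact two-sided permutation test of that percentage, in which the one-sided p is multiplied by 2, p = 0.2. That is the smallest value this test can give with the 10 arrangements of these libraries. The labels do not say whether ribosomal RNA was depleted before sequencing, and a depletion step acts on these RNAs directly.

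**Figure D5:**
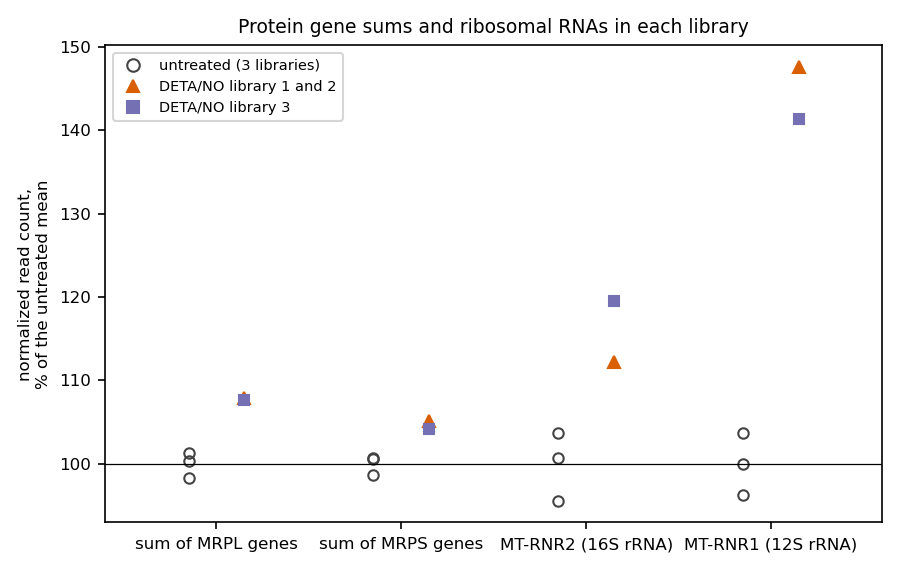
Summed MRPL and MRPS values and the values of MT-RNR2 and MT-RNR1 in each library, in percent of the untreated mean (circles, 3 untreated libraries; triangles, DETA/NO library 1 and 2; squares, DETA/NO library 3). The protein gene sums lie at 104.1% to 107.9% after DETA/NO, MT-RNR2 at 112.3% and 119.5%, and MT-RNR1 at 147.6% and 141.3%.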

How the data were processed

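The deposited files hold 1 normalized read count (a signal per gene, scaled by the authors) for 45019 rows in each of 6 samples. Per the submitters' processing notes the tools included TopHat2 2.1.1, Bowtie2 2.5.0.0, featureCounts 2.0.3 and DESeq2 1.38.3 with the GRCh38 build, while annotation, strand and overlap settings are not given in the sources used here. Every library had 100% of its values at whole multiples of the value of 1 read (tolerance 0.01), so reads were recovered, 28897422 to 34637343 per library. Identical files (DETA/NO replicates 1 and 2) counted once. In each file 27 rows named as dates held 0.246% of the values and were kept.

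The test was limma 3.58.1 (R 4.3.3, mean-variance trend, robust eBayes) on log2(value + 1), for a mean of at least 10, with Benjamini-Hochberg adjustment over 16409 genes and a threshold of 0.05. Fold changes on this scale understate low genes. Alternatives were edgeR 4.0.16 and DESeq2 1.42.0 on recovered reads, limma without trend and robust options, pseudocounts of 0.5 and 5, other filters and scalings, a replicate block, each library left out, and other overlap and length rules. Positions and exonic lengths are from GENCODE release 29 (GRCh38), and overlaps are with other genes in the files.

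The members, lists and alternatives were chosen with earlier results of these data known. Named genes are all members under a mean of 10, up to 6 called rises and falls per subunit with separated libraries, the 3 highest and lowest per kilobase, 11 members always, and from each other list up to 3 called each way. No list was tested as a set.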

Additional observations from a re-analysis of the deposited data

How the results depend on the processing

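Of the 21 called members, the 6 that passed in each of the 15 alternatives were named above, and no member, list gene or ribosomal RNA that was called changed sign under any. Pseudocounts of 0.5 and 5, a mean of at least 50, TMM scaling and edgeR kept all 21 calls, while no filter lost 2 and quantile normalization 3. Limma without the trend and robust options called 8 members higher (12.9%, 6 large and 2 small) and 0 lower. At an unadjusted p under 0.05 it gave 17 and 1. Of all genes it called 2262 (13.8%) higher and 2497 (15.2%) lower. DESeq2 called 12 members higher (3 small) and 0 lower in either subunit. With 1 library left out, members called higher numbered 11 to 19 (large 8 to 13, small 3 to 6) and members called lower 0 to 2 (0 to 1 in each subunit). The median log2 fold change then ran from 0.0809 to 0.1069 in the large and from 0.0224 to 0.0867 in the small subunit. The small subunit median was 0.0252 without untreated library 3. Limited to members with under 10% of their exonic length in other exons, 17 of 49 tested were higher (34.7%) and 1 lower (2.04%). Of all genes tested, 21.7% were higher and 21.7% lower. With the 10% limit set on other spans instead, added after seeing the data, 15 members were higher and 1 lower. Median levels per kilobase became 377.7 (large) and 397.6 (small) over exonic length not shared with other exons, and 415.7 and 447.2 outside other spans. Same-numbered libraries did not deviate together (correlations of 0.03 and 0.029 for the numbers shared, 0.001 for untreated 2), and the labels name no shared day. With the replicate block 23 members were higher and 2 lower, with MRPL9, MRPL47, MRPS10 and MRPL39 added. At this depth MRPL19, MRPL4 and MRPS2, tested at few reads, had standard errors of 0.157 to 0.270.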
